A study of Neurospora crassa with 12 samples.

Results

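The carotenoid pigment pathway of Neurospora crassa was followed here through its 5 structural genes, al-3 (NCU01427), al-2 (NCU00585), al-1 (NCU00552), cao-2 (NCU11424) and ylo-1 (NCU04013). They were chosen as the genes of the pathway by name, not by their values, though with earlier results of these data known. They are 5 of the 9729 genes with an NCU identifier and of the 11409 features counted in each library. RNA was sequenced from mycelium of the wild type strain FGSC2489 treated with 40 μM HSAF (heat-stable antifungal factor), a polycyclic tetramate macrolactam made by the bacterium Lysobacter enzymogenes. The groups were HSAF-0, labelled untreated (libraries A, B and C), HSAF-5, treated for 5 min (D, E and F), HSAF-30, treated for 30 min (G, H and I), and HSAF-60, treated for 60 min (J, K and L). All libraries came from the same strain, with no mutation or other agent named, and the labels give an age of 48 h after inoculation for every sample, whereas the study's methods give a shorter culture. The study calls the 3 libraries of a time point biological replicates. The labels do not say which culture each came from, and p-values measure the spread between these libraries. The light reaching the liquid cultures is not given in the labels or the study's methods. No untreated library was taken at 5, 30 or 60 min, and no solvent control is named. HSAF, elapsed time and handling therefore cannot be told apart.

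Neurospora is orange because its conidia and light-exposed mycelium accumulate carotenoids, ending in the acid neurosporaxanthin. AL-3 makes geranylgeranyl pyrophosphate from farnesyl pyrophosphate, AL-2 joins 2 of these molecules into phytoene and also closes the ring of the carotenes, and AL-1 introduces the double bonds that give colour. CAO-2 then cleaves torulene, and YLO-1, an aldehyde dehydrogenase, oxidises the product to neurosporaxanthin. In mycelium the albino genes al-1, al-2 and al-3 are known as targets of blue light, which acts through the White Collar proteins WC-1 and WC-2 and is damped by the photoreceptor VIVID (VVD).

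Each library held between 11517462 and 15698448 counted reads, but 25.2% to 93.7% of them lay in a pair of unannotated features, newGene_189 and newGene_190, which left 790513 counts on NCU genes in library I of HSAF-30 and up to 11265740 in library J of HSAF-60. Library I was therefore the shallowest for these genes, with 7 counts of al-1, 12 of cao-2, 56 of al-2, 67 of ylo-1 and 122 of al-3. Values are given as CPM, counts scaled to the same total over the NCU genes in every library after TMM adjustment, and changes as log2 fold changes with their standard errors (SE) from edgeR's quasi-likelihood test. A gene was called at a Benjamini-Hochberg adjusted p over all 7582 tested genes under 0.01 and a change of at least 1 on the log2 scale. All 5 pathway genes passed the filter on low counts. As these are bulk samples, fewer cells of a type and less RNA per cell cannot be told apart.

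All 5 genes differed over the 4 time points in the test for any change, against 45.1% of all tested genes at the same adjusted p. The number was 3 without library B and 4 or 5 without any other. They did so in different ways. Transcripts of al-1 rose at 5 min and were below the untreated level at 60 min, al-3 rose at 30 and 60 min, and ylo-1 was lower at 30 and 60 min. cao-2 fell between 5 and 30 min. al-2, which had the highest mean CPM of the 5 in every group, was called in no single comparison, although its adjusted p for any change over time was 0.0085 with edgeR.

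**Figure D1:**
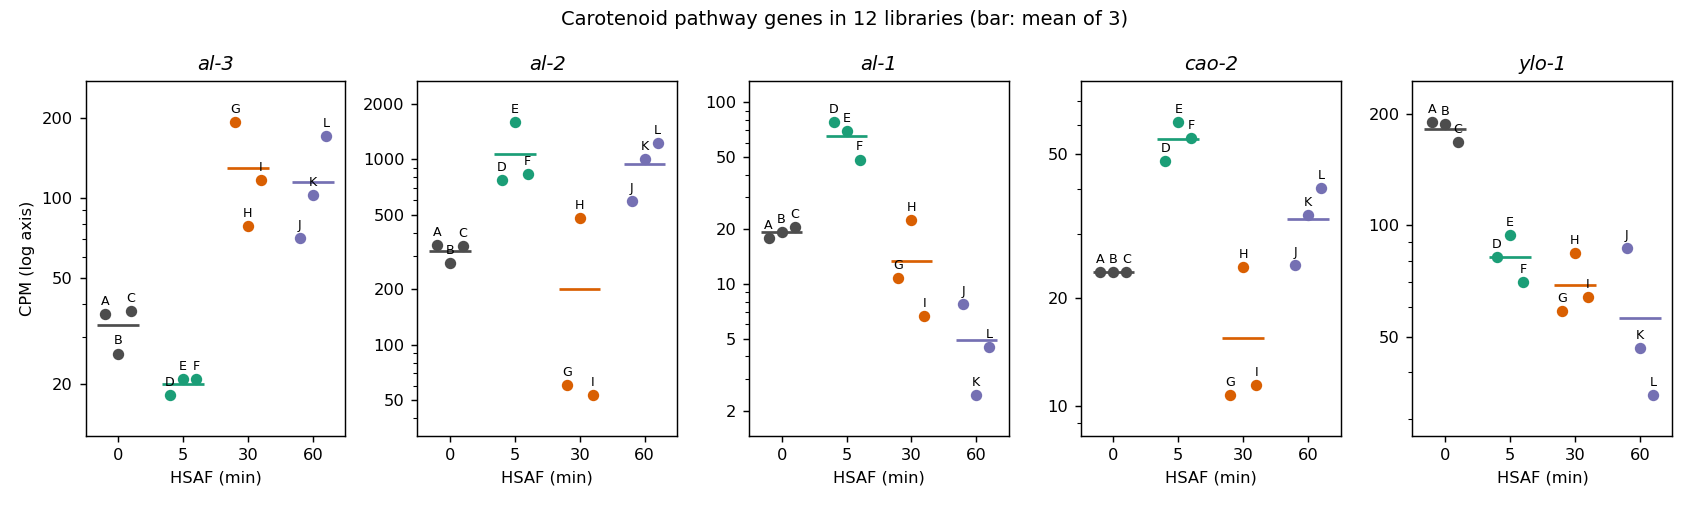
Level of each gene in CPM (vertical log axis, a separate range for each gene) against minutes of HSAF, with 1 point per library marked by its letter and a bar at the mean of 3. al-3 is lowest at 5 min and highest in G and L, al-1 is highest in D, E and F, and library H lies far above G and I for al-2.

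al-3, the first of the 5 enzymes in the pathway, was called higher than in HSAF-0 at 30 and 60 min but not at 5 min. Its level was 36.6, 26.0 and 37.5 CPM in the untreated libraries A, B and C. It was 18.2, 20.8 and 20.8 CPM in D, E and F after 5 min. After 30 min it was 193.5, 78.7 and 116.8 CPM in G, H and I. The 5 min libraries all lay below the untreated ones and the 30 min libraries all above both. After 60 min it was 71.0, 103.2 and 170.7 CPM in J, K and L, again with no overlap with the untreated libraries. Relative to HSAF-0 the change was −0.74 ± 0.38 (SE) at 5 min, which was not called (edgeR adjusted p = 0.178), 1.96 ± 0.38 after 30 min (adjusted p = 0.000531) and 1.78 ± 0.38 after 60 min (adjusted p = 0.00269). From 5 to 30 min it rose by 2.70 ± 0.40 (adjusted p = 0.000157). The calls at 30 min, against 0 and against 5 min, held when each library was left out in turn. The call at 60 min was lost without A, B, C or L (adjusted p from 0.0121 to 0.022). Between 30 and 60 min the groups overlapped and the difference was −0.18 ± 0.37 (adjusted p = 0.719), whose sign turned without G (0.25) or J (0.08).

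al-2, which makes phytoene, varied more between the libraries of a group than the other genes did at 5 and 30 min. It was at 346.8, 277.4 and 341.0 CPM in A, B and C. It was at 773.2, 1592 and 833.2 CPM in D, E and F. Every 5 min library thus exceeded every untreated one. At 30 min G and I were at 60.7 and 53.6 CPM and H at 482.5 CPM. H was the only 30 min library above the untreated range, while G and I lay below it. At 60 min J, K and L were at 598.5, 999.1 and 1233 CPM, all above the untreated libraries. The change from HSAF-0 was 1.73 ± 0.63 at 5 min (edgeR adjusted p = 0.0604), −0.68 ± 0.62 after 30 min (adjusted p = 0.372) and 1.55 ± 0.63 after 60 min (adjusted p = 0.0829). The difference of HSAF-30 from HSAF-5 was −2.41 ± 0.65 (adjusted p = 0.0102) and that of HSAF-60 from HSAF-30 was 2.23 ± 0.64 (adjusted p = 0.0107), both just outside the threshold.

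The call of al-2 depended on the tool and on single libraries. With all libraries kept, the fall from 5 to 30 min was called with DESeq2 (−2.48, adjusted p = 0.00031), with DESeq2 size factors, upper quartile scaling or TMM on all features in edgeR, with no filter on low counts, with the newGene share as a covariate and with limma on TPM. The rise from 30 to 60 min was called with DESeq2 (2.37, adjusted p = 0.000435), with those same scalings or library size alone in edgeR, with no filter and with limma on TPM or on FPKM with either pseudocount. Without library H al-2 was called in all 5 comparisons, at 1.73 (adjusted p = 0.00137) for HSAF-5 and 1.55 (adjusted p = 0.00276) for HSAF-60 against HSAF-0, at −2.49 (adjusted p = 0.000146) for HSAF-30 against HSAF-0, at −4.22 (adjusted p = 8.18e-06) for HSAF-30 against HSAF-5 and at 4.05 (adjusted p = 1.32e-05) for HSAF-60 against HSAF-30. Without J it was called between 5 and 30 min (−2.41, adjusted p = 0.00919) and between 30 and 60 min (2.48, adjusted p = 0.00983). With only the groups compared in the fit it was also called at 5 min (adjusted p = 0.00078) and 60 min (adjusted p = 0.00194). Nothing in the labels sets H apart, and it was kept. H was also the highest of the 30 min libraries for al-1, cao-2 and ylo-1 and the lowest for al-3.

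al-1, the desaturase, rose early and then dropped below its untreated level. It stood at 18.0, 19.4 and 20.5 CPM in A, B and C. In D, E and F it stood at 77.9, 69.3 and 48.4 CPM, above every other library of the series. In G, H and I it was at 10.8, 22.4 and 6.70 CPM. The 30 min group overlapped the untreated group through H. In J, K and L it was at 7.79, 2.45 and 4.50 CPM, which for K was 12 counts, and all 3 lay below the untreated libraries. Against HSAF-0 the change was 1.75 ± 0.42 at 5 min (edgeR adjusted p = 0.00645), −0.46 ± 0.42 after 30 min (adjusted p = 0.384) and −1.92 ± 0.43 after 60 min (adjusted p = 0.00413). From 5 to 30 min it fell by 2.21 ± 0.43 (adjusted p = 0.0014).

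The rise of al-1 at 5 min lost its call without A, B, C, D or E (adjusted p from 0.0199 to 0.0325) and with upper quartile scaling (adjusted p = 0.0132) or library size alone (1.28, adjusted p = 0.0317), and with limma on TPM (1.19, adjusted p = 0.0462). Its fall at 60 min lost the call without A, B, C, K or L (adjusted p from 0.0113 to 0.0253). The fall from 5 to 30 min lost it without G (adjusted p = 0.0101). The direction was the same each time. Between 30 and 60 min the change was −1.47 ± 0.44 (adjusted p = 0.013), which was not called, and it was called without I (−1.70, adjusted p = 0.0054) or without J (−1.97, adjusted p = 0.00483).

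cao-2, which cleaves torulene, moved with al-2 and with a smaller amplitude. The untreated libraries held 23.46, 23.53 and 23.48 CPM, the tightest of any group here. The 5 min libraries held 47.8, 61.1 and 55.3 CPM. The 30 min libraries G and I held 10.8 and 11.5 CPM and H held 24.2 CPM. The 5 min libraries stood above all others, and H again stood near the untreated level. At 60 min the values were 24.6, 33.9 and 40.2 CPM in J, K and L. The change from HSAF-0 was 1.22 ± 0.34 at 5 min (edgeR adjusted p = 0.015), −0.56 ± 0.34 after 30 min (adjusted p = 0.186) and 0.49 ± 0.33 after 60 min (adjusted p = 0.312), none of them called. The fall from 5 to 30 min, −1.78 ± 0.35 (adjusted p = 0.00132), was called and held with each library left out, but was lost when only those groups were fitted (adjusted p = 0.0103). The 5 min difference was called without G (adjusted p = 0.00983) or H (adjusted p = 0.00333), in the fit of those groups alone (adjusted p = 0.00109) and with DESeq2 (adjusted p = 0.00264). From 30 to 60 min it was 1.04 ± 0.34 (adjusted p = 0.0217), and 1.58 (adjusted p = 0.00187) without H.

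ylo-1, the last enzyme, was the one gene of the 5 that stood lower at every time after HSAF was added. Its level was 189.9, 187.1 and 168.0 CPM in A, B and C. It was 82.1, 94.3 and 70.0 CPM in D, E and F. It was 58.7, 84.0 and 64.1 CPM in G, H and I. None of the treated libraries reached the untreated range, and the 5 and 30 min libraries overlapped. At 60 min it was 86.7, 46.6 and 34.8 CPM in J, K and L. The change from HSAF-0 was −1.15 ± 0.33 at 5 min (edgeR adjusted p = 0.0208, not called), −1.39 ± 0.34 after 30 min (adjusted p = 0.00272) and −1.69 ± 0.34 after 60 min (adjusted p = 0.00166). The call at 30 min was lost without A, B or G (adjusted p from 0.0104 to 0.0168) and the call at 60 min without B, K or L (adjusted p from 0.0105 to 0.015). The 5 min difference was called without J (adjusted p = 0.00795), with upper quartile scaling (−1.39, adjusted p = 0.00663), with library size alone (−1.64, adjusted p = 0.00455), with DESeq2 (adjusted p = 0.00296), in the fit of those groups alone (adjusted p = 0.00121) and with limma on TPM (adjusted p = 0.00906).

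**Figure D2:**
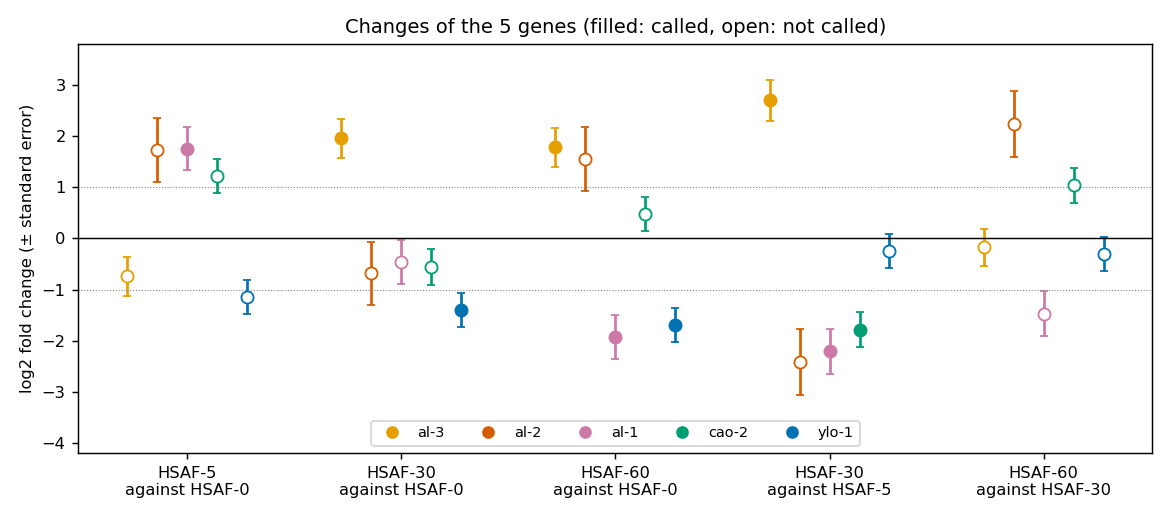
Log2 fold change (vertical axis, ± SE) of the 5 genes in the 5 comparisons (horizontal axis), filled where called and open where not, with dotted lines at a change of 1 in either direction. For HSAF-30 against HSAF-0 the filled points are al-3 at 1.96 and ylo-1 at −1.39, and no point is filled for HSAF-60 against HSAF-30.

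Counted over the pathway, 1 of the 5 genes rose at 5 min (al-1) and 0 fell, when 9.72% of all tested genes were called higher and 2.27% lower. With edgeR 3 were higher and 1 lower at an unadjusted p under 0.05, and DESeq2 called 3, al-1 and cao-2 higher and ylo-1 lower. The shares of all genes given here are those of edgeR calls, and none was counted at an unadjusted p or for DESeq2. At 30 min 1 was called higher (al-3) and 1 lower (ylo-1), beside 19.1% and 15.2% of all genes. At 60 min 1 was called higher (al-3) and 2 lower (al-1 and ylo-1), beside 9.38% and 3.53%. From 5 to 30 min 1 was called higher (al-3) and 2 lower (al-1 and cao-2), beside 9.02% and 7.81%, and DESeq2 called 3 lower, with al-2 added. From 30 to 60 min edgeR called 0, with 2 higher and 1 lower at an unadjusted p under 0.05, when 13.4% of all genes were called higher and 13.8% lower. DESeq2 called 3 there, al-2 (2.37) and cao-2 (1.12) higher and al-1 (−1.36) lower.

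Relative to HSAF-0 the 5 genes had median changes of 1.22, −0.56 and 0.49 in the order of time, beside medians over all tested genes of −0.11, −0.17 and 0.0019. The comparisons against HSAF-0 share their untreated libraries. With 5 genes moving in different directions the median describes none of them.

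Set per length, the genes stood in an order that changed with time. In TPM, the deposited FPKM rescaled to the same total over the NCU genes in each library, al-2 was at 181 ± 32.6 and ylo-1 at 141 ± 29.2 (SD, n = 3) in HSAF-0, followed by al-3 at 26.3 ± 5.96, cao-2 at 17.6 ± 1.80 and al-1 at 14.6 ± 0.468. al-2 exceeded ylo-1 in each untreated library, but the ranges of the pair overlapped, while al-3 and cao-2 did not. After 5 min al-2 was at 432 ± 215 TPM and ylo-1, al-1 and cao-2 followed at 46.3 ± 13.8, 36.1 ± 12.2 and 29.3 ± 4.97, whose ranges overlapped. al-3 was then last, at 11.1 ± 1.23 TPM, with no overlap with the others.

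After 30 min al-2 and al-3 stood at similar means, 91.9 ± 106 and 90.8 ± 36.6 TPM, and were not distinguishable. Per library the order was not the same, since al-3 was ahead in G (105 against 23.3 TPM) and I (118 against 38.2 TPM) and al-2 in H (214 against 49.2 TPM). ylo-1 followed at 45.4 ± 16.2, overlapping both, and then cao-2 at 10.1 ± 4.45 and al-1 at 8.40 ± 4.42 TPM, the latter pair overlapping. After 60 min al-2 was at 565 ± 151 TPM, al-3 at 96.5 ± 34.6, ylo-1 at 46.8 ± 25.2, cao-2 at 26.6 ± 4.27 and al-1 at 4.09 ± 2.62. The ranges of ylo-1 overlapped with those of al-3 and cao-2, and al-1 lay below all. The length implied by the deposited FPKM differed between libraries by 1.04-fold for al-3 and up to 1.25-fold for ylo-1, so TPM carries that uncertainty.

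**Figure D3:**
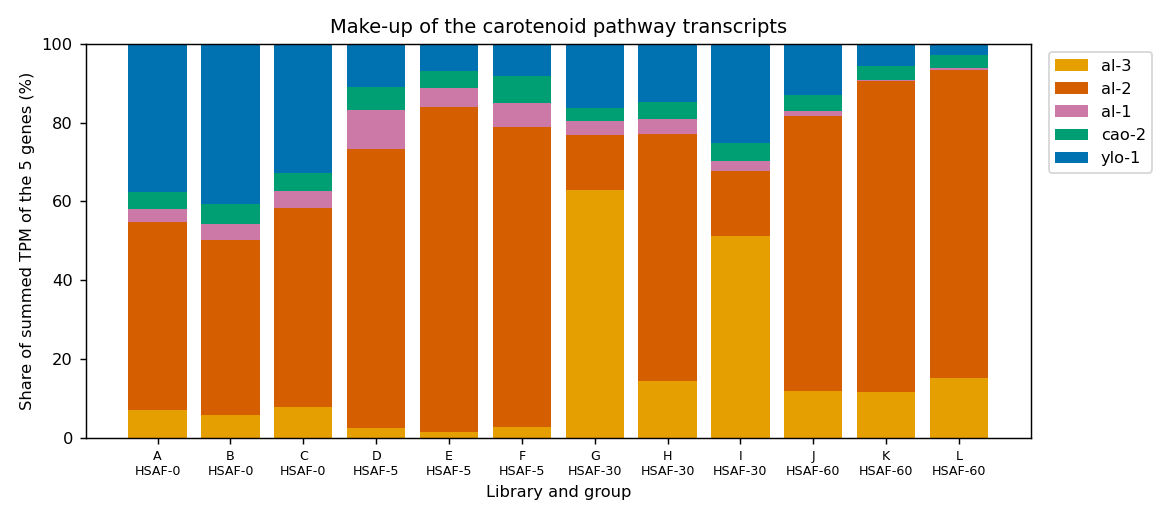
Share of the summed TPM of the 5 genes taken by each gene (vertical axis, percent) in each library (horizontal axis, with its group). al-2 takes 44.3% to 50.6% in A to C, over 70% in D to F and J to L, and 16.5% or less in G and I, where al-3 takes 63.0% and 51.1%.

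As a share of the summed TPM of the 5 genes, ylo-1 went from 37.0% ± 3.97 (SD, n = 3) without treatment to 8.71% ± 2.08 at 5 min, and al-2 from 47.5% ± 3.16 to 76.6% ± 5.71. al-3 made up 6.91% ± 1.00 of the sum before treatment, and then 2.18% ± 0.602, 42.8% ± 25.3 and 12.8% ± 2.10 after 5, 30 and 60 min. al-1 fell to 0.623% ± 0.537 of it in HSAF-60. The sum itself was 380 ± 63.6, 555 ± 237, 247 ± 88.6 and 739 ± 160 TPM in the order of time.

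Ratios between the genes do not depend on how libraries are scaled. For each of the 10 pairs, the log2 ratio of counts was compared over the 4 groups with an exact permutation test of the F statistic (one-sided, 15400 groupings, smallest possible p 6.49e-05), and all 10 had an adjusted p under 0.05 over the 10 pairs. The pairs share their genes and are not independent. Pairs of other genes were not tested, so the count has no background and is not shown to be particular to the pathway. The ratio of al-3 to al-1 was 0.77 ± 0.31 (SD, n = 3) without treatment and became −1.68 ± 0.44, 3.33 ± 1.32 and 4.58 ± 1.21 after 5, 30 and 60 min (exact permutation p = 0.000195, adjusted 0.000649). al-3 was thus ahead of al-1 in counts at every time except 5 min. The ratio of al-2 to al-1, successive steps of the pathway, was 4.05 ± 0.21, 3.98 ± 0.62 and 3.27 ± 1.02 at 0, 5 and 30 min and 7.65 ± 1.23 at 60 min (exact permutation p = 0.00766, adjusted 0.00958). The ratio of al-2 to cao-2 varied least, from 2.99 ± 1.15 in HSAF-30 to 4.81 ± 0.18 in HSAF-60, and had the largest p of the 10 (exact permutation p = 0.044, adjusted 0.044). Leaving out any one library kept at least 9 of the 10 pairs under 0.05.

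Likeness between the genes was described by Pearson's r of their log2 CPM over the 12 libraries, with no test, since the libraries fall into 4 groups and share their scaling. al-2 and cao-2 were the most alike pair, with r = 0.93 (0.91 without library I, Spearman's rho 0.91). al-3 ran against the other genes, with r = −0.83 to al-1, −0.62 to ylo-1, −0.61 to cao-2 and −0.42 to al-2. al-1 was closer to cao-2 (r = 0.47) than to al-2 (r = 0.24).

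**Figure D4:**
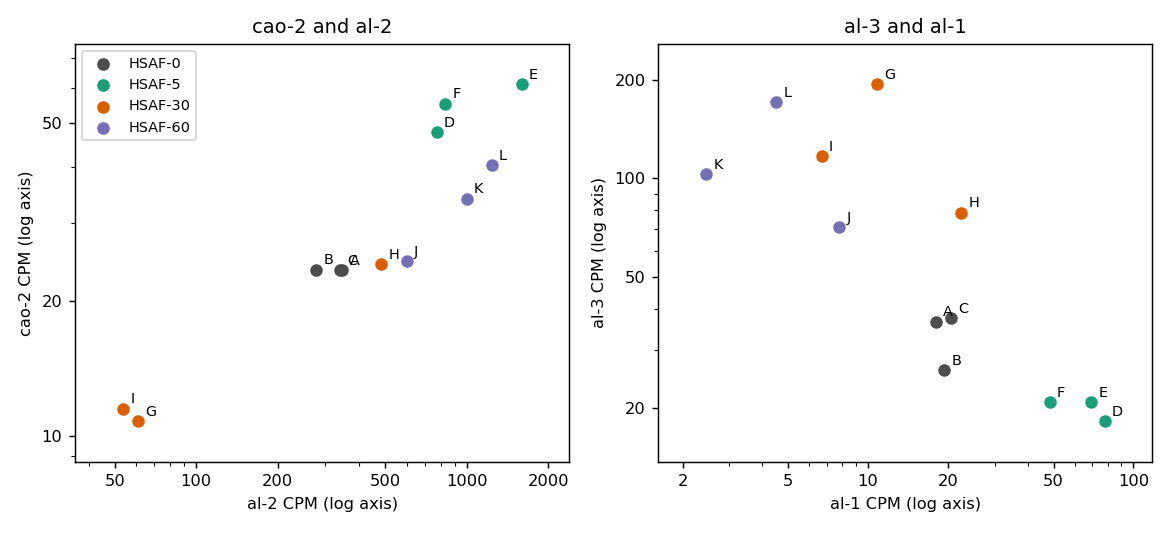
CPM of cao-2 against al-2 (left) and of al-3 against al-1 (right), both axes logarithmic, 1 point per library marked by its letter and coloured by group. cao-2 and al-2 rise together (r = 0.93), with G and I at the low end, and al-3 declines as al-1 increases (r = −0.83).

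Among 4707 genes with a mean of at least 3 on the log2 CPM scale, those most alike to each pathway gene were found by the same r over the 12 libraries. For al-3 they were NCU06854 and NCU09772 (both r = 0.98). For al-2 they were NCU08708 and NCU03267 (both 0.93). For al-1 they were NCU09782 (0.97) and lys-5 (0.96), for cao-2 they were NCU02353 (0.95) and NCU06944 (0.93), and for ylo-1 they were ilv-2 (0.94) and NCU16903 (0.92). NCU03267 stood among the 3 most alike to both al-2 and cao-2, at 0.93 each.

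The other known light-response genes were read from a list of 11, all of which were tested. At 5 min 4 were called higher and 0 lower, beside 9.72% and 2.27% of all genes called. At an unadjusted p under 0.05, 6 were higher and 0 lower, and the share of all genes at that p was not counted. The 4 were phr, the DNA photolyase, at 2.92 ± 0.46 (edgeR adjusted p = 0.000193), cry, a cryptochrome, at 1.67 ± 0.39 (adjusted p = 0.00577), bli-4, a blue-light-inducible gene, at 3.32 ± 0.65 (adjusted p = 0.00132) and the clock-controlled gene ccg-1 at 1.81 ± 0.42 (adjusted p = 0.00513). The median over the list was 1.30 and that over all tested genes −0.11. vvd was at 15.7, 24.8 and 23.6 CPM in A, B and C and at 73.6, 109 and 61.7 CPM in D, E and F, with no overlap, and its change of 1.92 ± 0.53 was not called (adjusted p = 0.0149), though it was without library I, which brought the count to 5.

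phr was at 6.43, 8.77 and 6.39 CPM in A, B and C and at 66.4, 49.6 and 48.8 CPM in D, E and F, the clearest separation in the list. In G, H and I it was at 2.52, 13.1 and 9.57 CPM, on both sides of the untreated range. The 5 min libraries were thus the highest of the series for al-1, cao-2, phr and vvd alike, and also for cry, bli-4 and csp-1. This was not so for al-2, al-3, ylo-1, frq, bli-3, ccg-1, wc-1, wc-2 or sub-1. In the light list sub-1 (−0.93 ± 0.56, edgeR adjusted p = 0.252) and wc-2 were lower at 5 min, neither of them called. The share of all genes that were highest in the 5 min libraries was not counted. Which light the cultures saw at each time is not given in the sources used here, and its part in these values was not tested.

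The genes of the White Collar complex did not pass the test. wc-1 was at 2.64 to 3.86 CPM in HSAF-0 and 4.65 to 6.03 CPM in HSAF-5 (0.66 ± 0.52, edgeR adjusted p = 0.384), and wc-2 had means of 11.9 ± 0.902 and 8.34 ± 4.90 CPM (SD, n = 3), a change of −0.50 ± 0.44 (edgeR adjusted p = 0.439). At 30 min against HSAF-0 1 gene of the list was called higher, ccg-1 (1.76 ± 0.42, adjusted p = 0.00242), and 0 lower, beside 19.1% and 15.2% of all genes. At an unadjusted p under 0.05, 1 was higher and 1 lower. From 5 to 30 min 3 were called lower, vvd (−2.47 ± 0.55), cry (−2.48 ± 0.41) and phr (−2.74 ± 0.47), and 0 higher. Of all genes 7.81% were called lower there and 9.02% higher. At an unadjusted p under 0.05, 5 of the list were lower and 0 higher. vvd lost its call without I. At 60 min against HSAF-0 edgeR called 0 of the 11, beside 9.38% of all genes called higher and 3.53% lower. At an unadjusted p under 0.05, 1 was higher and 0 lower. From 30 to 60 min it called 0 as well, beside 13.4% higher and 13.8% lower, with 1 higher and 2 lower at that p. Without I, ccg-1 was called higher at 60 min against HSAF-0 and bli-3 lower from 30 to 60 min.

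**Figure D5:**
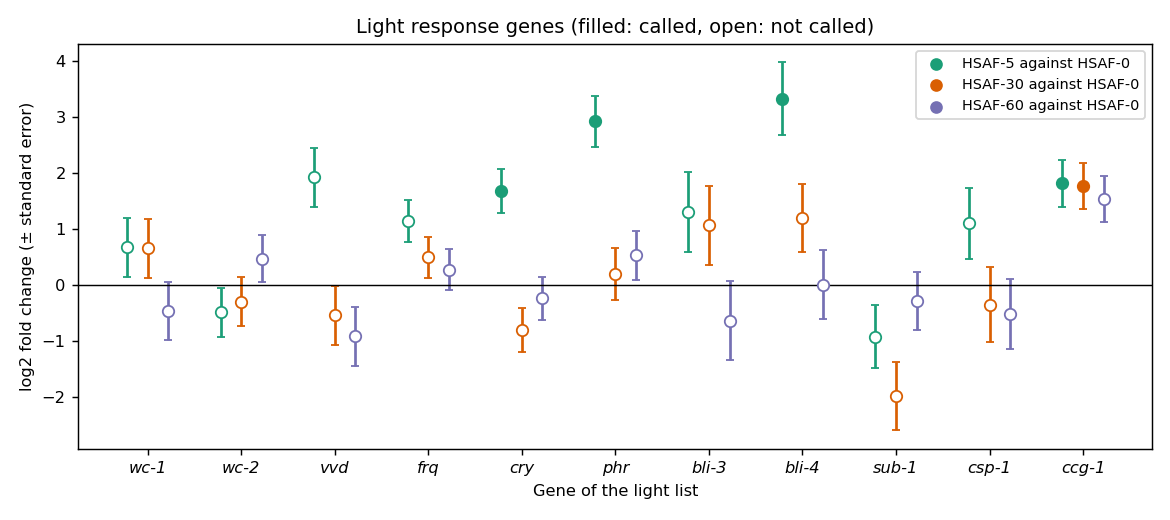
Log2 fold change (vertical axis, ± SE) against HSAF-0 of the 11 genes of the light list (horizontal axis) at 5, 30 and 60 min, filled where called and open where not. phr (2.92), bli-4 (3.32), cry (1.67) and ccg-1 (1.81) are filled at 5 min, and of these ccg-1 alone is filled at 30 min (1.76).

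Likeness to the light list differed between the pathway genes. cao-2 was most alike to cry (r = 0.90 over the 12 libraries, 0.88 without I) and phr (0.84, 0.92 without I). al-2 was most alike to the same genes, cry (0.76, 0.70 without I) and phr (0.65, 0.74 without I). al-1 was most alike to bli-4 (0.86, 0.85 without I) and vvd (0.84 with or without I), though csp-1 was ahead of them without I (0.89). al-3 ran against cry (−0.80) and vvd (−0.75), and ylo-1 had its strongest relation with ccg-1, at −0.61 (−0.68 without I), and its highest positive r with csp-1, at 0.34.

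The supply of farnesyl pyrophosphate, from which both carotenoids and sterols are made, was read from 4 annotated genes. These were fpp, the farnesyl pyrophosphate synthase, NCU00712, annotated as 3-hydroxy-3-methylglutaryl-coenzyme A reductase, NCU08671, a phosphomevalonate kinase, and NCU07719, an isopentenyl-diphosphate delta-isomerase. The last 3 took their annotation from a table of genes that the study had selected for their change at 5 min, so that their direction is not independent evidence. fpp was at 124.7, 133.8 and 119.5 CPM in A, B and C, at 76.2, 68.0 and 68.6 CPM in D, E and F, and at 48.5, 69.6 and 33.5 CPM in G, H and I. As with ylo-1, no library after HSAF reached the untreated range.

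At 30 min 3 of the 4 were called lower and 0 higher (0 at an unadjusted p under 0.05 as well), fpp at −1.30 ± 0.31 (edgeR adjusted p = 0.00254), NCU00712 at −1.59 ± 0.42 (adjusted p = 0.0055) and NCU08671 at −1.44 ± 0.40 (adjusted p = 0.00751). Of all genes 15.2% were called lower. As NCU00712 and NCU08671 came from the selected genes, and the untreated libraries are shared, the list cannot be weighed against that share. Without the shallow library I, fpp was the 1 gene still called. NCU07719 was at 0.31 ± 0.33 there (adjusted p = 0.452). At 5 min none of the 4 was called by edgeR. All 4 were lower at an unadjusted p under 0.05, for which no share of all genes was counted. At 60 min against HSAF-0 none was called either, and 3 were lower at that p, of which NCU07719 was called without I. Between the later times NCU07719 was the 1 gene of the list called. It was higher from 5 to 30 min (1.43 ± 0.34, edgeR adjusted p = 0.00511), beside 9.02% of all genes. It was lower from 30 to 60 min (−1.54 ± 0.34, adjusted p = 0.00174), beside 13.8% of all genes. Both calls held without I. al-3, which draws on the same pool, was higher while fpp was lower at 30 min. ylo-1 was the pathway gene most alike to NCU00712 (r = 0.89) and fpp (0.85).

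The tissue label was checked with 8 conidiation genes, since conidia carry the pigment. con-6, con-10 and con-13, genes strongly expressed in conidia, were at or near 0, with a highest value of 6.39 CPM over the 12 libraries. Other genes of the list were expressed. con-8 was at 12.9 to 18.7 CPM in the untreated libraries, 25.3 to 61.1 CPM after 5 min, 0 to 11.1 CPM after 30 min and 1.84 to 23.0 CPM after 60 min. eas, the hydrophobin of the conidial surface, was at 5.57 to 20.0 CPM without treatment and reached 99.5 CPM in E, with D and F at 19.0 and 6.75 CPM. Neither was called in any comparison, and the tissue label thus rests on part of the list. The summed level of the 8 genes ranged from 33.0 to 42.7 CPM without treatment, from 69.6 to 195 CPM after 5 min, from 65.1 to 129 CPM after 30 min and from 19.9 to 52.0 CPM after 60 min. The sum was thus higher in all 5 and 30 min libraries than in the others. The larger part of it in G, H and I came from acon-2 and acon-3. acon-2 was at 71.3, 70.1 and 25.8 CPM there and acon-3 at 13.8, 14.6 and 26.8 CPM. The early regulators acon-2 and acon-3 rose at 30 min, by 4.23 ± 0.41 (edgeR adjusted p = 8.48e-07) and 4.88 ± 0.62 (adjusted p = 1.14e-05), and acon-2 also at 5 min, by 3.40 ± 0.41 (adjusted p = 1.36e-05). con-10 was called higher at 30 min on at most 6.39 CPM, and fl lower, with G and I at 0, a call that fl lost without I (adjusted p = 0.0156). Of the 6 tested genes 3 were thus called higher at 30 min and 1 lower, beside 19.1% and 15.2% of all genes. At 5 min 1 was called higher, beside 9.72%. From 30 to 60 min acon-2 (−4.64 ± 0.42, edgeR adjusted p = 4.45e-06) and acon-3 (−3.17 ± 0.54, adjusted p = 0.000262) were called lower and 0 higher, beside 13.8% and 13.4%. The part of these genes in the carotenoid values was not tested.

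Genes next to the pathway genes on the chromosome, taken from the RefSeq annotation of assembly NC12, were read for the same comparisons. Of the 10 flanking genes 9 were tested. Beside the 9 calls of pathway genes stood 16 values of tested neighbours. Of these, 0 were called in the same direction and 2 in the opposite one, when 2.27% to 19.1% of all genes were called in a given direction in the comparisons against HSAF-0 and from 5 to 30 min, so the count says little of the neighbours. The 2 were myo2 next to al-1 (2.44 from 5 to 30 min, edgeR adjusted p = 0.000223) and NCU04014 next to ylo-1 (2.79 at 30 min, adjusted p = 5.31e-05). ncw-6, next to al-2, was called higher at 60 min (2.57, adjusted p = 0.00153) and from 30 to 60 min (1.87, adjusted p = 0.00637). NCU00584, on the other side of al-2, was called lower from 5 to 30 min (−1.64, adjusted p = 0.00159) and higher from 30 to 60 min (2.18, adjusted p = 0.000109). al-2 itself stood at 1.55, −2.41 and 2.23 in these comparisons, in the same directions, and was not called. Other neighbours called beside an uncalled pathway gene went either way. NCU09306, next to cao-2, was called lower at 5 and 60 min (−1.78 and −1.55), with cao-2 at 1.22 and 0.49. It was called lower at 30 min (−3.35) and higher from 30 to 60 min (1.80), with cao-2 at −0.56 and 1.04. NCU01426, next to al-3, was called higher from 30 to 60 min (1.64), with al-3 at −0.18. Of all genes 13.4% were called higher from 30 to 60 min.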

How the data were processed

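The authors deposited whole-number counts and FPKM values per feature for 12 libraries, made with an NEBNext Ultra kit. The FPKM values, as the authors computed them, are scaled over totals that include the newGene features. Which aligner, counting program, strand setting and build were used is not given in the sources used here, and the 2 sequencing instruments named are not assigned to libraries.

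Counts of 9729 NCU genes entered edgeR 4.0.16 (R 4.3.3). filterByExpr (minimum count 10) kept 7582 genes, libraries were scaled with TMM, and the quasi-likelihood fit had a coefficient for each time point and used all 12 libraries. Genes were called where the Benjamini-Hochberg adjusted p was under 0.01 and the log2 fold change at least 1 in size. DESeq2 1.42.0, limma 3.58.1 (log2(FPKM + 1), FPKM at least 1 in 3 libraries), other scalings and the omission of each library were alternatives. Ratios used a pseudocount of 0.5 counts. On simulated data with 200 of 7582 genes changed 4-fold, 182, 176 and 186 were recovered for HSAF-5, HSAF-30 and HSAF-60 against HSAF-0, with 1, 1 and 3 false calls. The simulation gave every gene the same dispersion (spread between replicates), below the common dispersion of the data (0.126). It changed only the better expressed genes. Recovery for genes as variable as al-2, or for weaker ones, was therefore not measured. Replicate libraries differed by more than sampling noise (chi-square per degree of freedom 10.3 to 177).

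All 5 pathway genes were named, and in the other lists the genes called or needed to describe a list. The members and lists were chosen with earlier results of these data known. All 9729 NCU identifiers matched the reference, which gave symbols and neighbours. Of 10 listed isoprenoid identifiers, 6 had no annotation in the sources used here and were left out. Columns were mapped by their letters, and no sequences were used here.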

Additional observations from a re-analysis of the deposited data

How the results depend on the processing

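The number of pathway genes called depended on the tool in every comparison. No share of all genes was counted for the alternative settings. limma on log2(FPKM + 1), on log2(FPKM + 0.1) and without the filter called 0 genes in HSAF-5, HSAF-30 and HSAF-60 against HSAF-0 and in HSAF-30 against HSAF-5, where edgeR had called 1, 2, 3 and 3. The deposited FPKM are scaled over totals that include the newGene features. For any change over time limma found 2, 2 and 0 of 5 in those settings, and edgeR 3 to 5 with a library left out. For HSAF-5 against HSAF-0 DESeq2 called 3, the fit of those groups alone 4 and an adjusted p under 0.05 with no fold limit 3, and leaving out a library gave 0 to 3. That range was 1 to 3 for HSAF-30 and 0 to 4 for HSAF-60 against HSAF-0.

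For HSAF-60 against HSAF-30, where edgeR called 0, the count was 1 with DESeq2 size factors, TMM on all features, no filter, limma on FPKM with either pseudocount, or the newGene_189 and newGene_190 share as a covariate (chosen after seeing the data), 2 with upper quartile scaling, library size alone or limma on TPM, 3 with DESeq2 or with an adjusted p under 0.05, and 0 to 2 with a library left out. Only uncalled differences changed sign. Library size alone turned ylo-1 to 0.027 (HSAF-30 against HSAF-5) and 0.083 (HSAF-60 against HSAF-30) and al-3 to 0.16 in the latter, where limma gave al-3 1.03, 1.12 and 1.03 and ylo-1 0.82, 0.96 and 0.82 in its 3 FPKM settings and al-3 0.12 on TPM. Leaving out a library moved that al-3 value between −0.57 and 0.25. The cause of these differences was not tested. Library size alone moved the median of all tested genes to −0.61, −0.44 and 0.15 at 5, 30 and 60 min against HSAF-0.

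No paired analysis was possible because the library letters are not repeated between time points. Depth limits al-1 and cao-2 most, with 7 and 12 counts in library I.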
